A study of Mus musculus with 37 samples.

Results

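The departure from additivity of Nipbl and Isl1 loss was measured by bulk RNA sequencing of mouse embryonic hearts (E10.5). For each gene it is the level in double heterozygous hearts, minus Isl1 +/-, minus Nipbl +/-, plus wild-type, on the log2 scale. A value of 0 means that the change in the double heterozygote equals the sum of both single changes, a positive value that the level lay above that sum and a negative value that it lay below. All 37 of the 37 libraries of the series entered, chosen by the genotype in their titles: 10 wild-type (Nipbl +/+; Isl1 +/+), 9 Isl1 +/-, 9 Nipbl +/- and 9 Nipbl +/-; Isl1 +/-.

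The fathers carried Stra8-iCre, a recombinase active in the male germ line, and a Nipbl Flox allele over a normal one. Per the series' design text, their sperm held a Flox allele that acts as wild-type or the null FIN allele, and sperm with the normal allele are not mentioned there. The mothers carried Isl1 Cre, in which a recombinase takes the place of a working Isl1 copy, so every Isl1 +/- and double heterozygous embryo also carried this Cre gene. Wild-type embryos came from the same cross. Whether Isl1 Cre acts on the paternal Nipbl allele in the embryo is not given in the sources used here. Nipbl had a median of 61.1 CPM (counts scaled to the library total) in Isl1 +/- against 57.0 in wild-type, and 37.2 in the double heterozygote against 37.6 in Nipbl +/-.

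Nipbl helps to load cohesin, the ring complex that holds chromatin loops, and partial loss of it is known to shift many genes by small amounts. Isl1 is a transcription factor of the second heart field, the progenitor pool that adds cells to the outflow tract, right ventricle and atria. At this stage the heart is a looped tube whose ventricular muscle builds trabeculae, whose endocardium forms cushions and over which the epicardium spreads.

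Total counts ranged from 23.4 to 51.0 M (mega-counts) per library with a median of 36.2 M, and 15046 of 25239 gene rows passed the filter on low counts. Libraries carry a set number (1, 2, 5, 6 or 7). Sets 2, 5 and 6 held all 4 genotypes, set 1 held wild-type and Isl1 +/- only, and set 7 held a single double heterozygous library, replicate 2, which the set term fits exactly and which therefore adds nothing to the fitted values. Heart muscle markers were abundant, with the ventricular light chain Myl2 at a median of 4245 CPM in wild-type. Nipbl ran from 47.6 to 78.8 CPM in wild-type and from 27.1 to 44.9 CPM in 8 Nipbl +/- libraries. The library labelled Nipbl +/- replicate 2 stood at 72.4 CPM, within the wild-type range, so the departures were computed again without it. For Barx2, Trim72, Clic6, Zfp979, Slitrk5 and Sox3, which changed with Nipbl loss, it lay outside the wild-type range on the side of its label. For Rarres1, Lrrc4b and Sobp it lay inside that range. Whether its label is right was not tested. Double heterozygous replicate 2, at 51.5 CPM of Nipbl, also lay within the wild-type range. Isl1 had a median of 6.82 CPM in wild-type and 5.80 CPM in Isl1 +/-, with overlapping ranges, so the Isl1 genotype of a library rests on its label.

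No gene departed from additivity past the threshold. With all 37 libraries 0 of 15046 genes had an adjusted p under 0.05 (0.00% called, smallest adjusted p 0.999, edgeR quasi-likelihood test), and 411 had an unadjusted p under 0.05 (2.73% called), 110 of them above 0 (0.731% called) and 301 below (2.00% called). Over all genes the estimate was above 0 in 49.5%, its median was −0.00, and 5% of genes lay below −0.51 and 5% above 0.27. When Nipbl +/- replicate 2 was left out, the adjusted count was again 0, with 484 genes at an unadjusted p under 0.05 (3.22% called), and 55.9% of estimates lay above 0. Of those 484 genes 219 were above 0 and 265 below, so the excess below 0 was smaller without that library, and 5% of all genes lay below −0.34 and 5% above 0.30. DESeq2 on the same design also gave 0 genes, with 435 at an unadjusted p under 0.05. With no departure in any gene a share of 0.05 is expected at such a p, and the 2.73% and 3.22% lay below it.

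What these data bound can be read from the intervals. The median half-width of the 95% interval was 0.34 on the log2 scale, and 0.27 without Nipbl +/- replicate 2. For 85.1% of genes the interval lay wholly between −1 and 1, and for 56.8% between −0.5 and 0.5. Leaving out Nipbl +/- replicate 2 gave shares of 88.7% and 68.9%. Precision followed the level of expression. Among the 3761 genes with the lowest level 50.6% of intervals lay between −1 and 1 and 5.37% between −0.5 and 0.5, while among the 3762 with the highest level the shares were 98.8% and 82.3%.

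**Figure D1:**
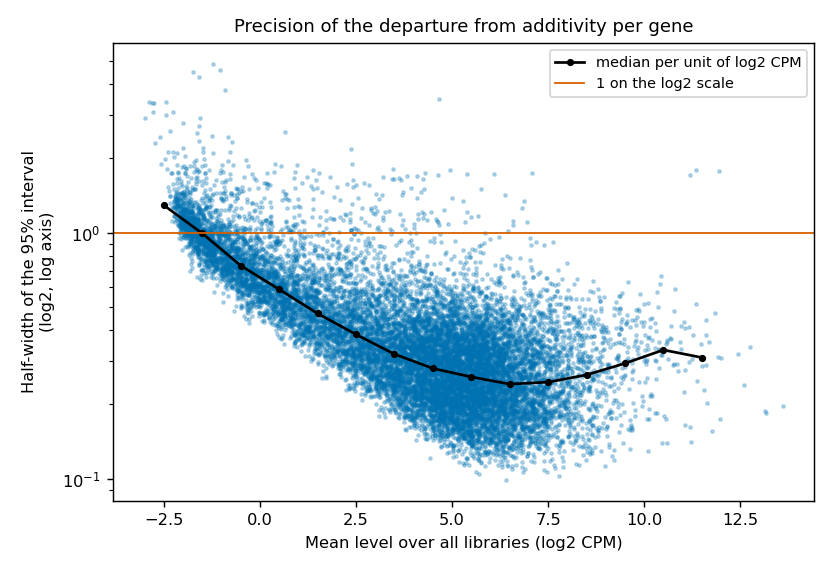
Half-width of the 95% interval of the departure from additivity (log2, log axis) against mean level (log2 CPM), 1 point per gene for 15046 genes, with the median per unit of log2 CPM in black. Intervals narrow as the level rises and most lie under the line at 1.

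The departure was also read over the genes that changed with genotype. Of the 391 genes past an adjusted p of 0.05 in double heterozygous against wild-type hearts (2.60% called, edgeR), 267 were higher and 124 lower. The higher genes had a median log2 change of 0.62 in the double heterozygote, and the median of the summed single changes was 0.61, made of 0.19 in Isl1 +/- and 0.38 in Nipbl +/-. The lower genes had a median of −0.50 against a summed −0.46. The interval of the departure covered 0 in 251 of the 267 and 115 of the 124, and 25 of the 391 (6.39%) had an unadjusted departure p under 0.05, beside 2.73% of all tested genes. The number of genes past the threshold was 839 without Nipbl +/- replicate 2 (5.58% called), of which 6.44% had such a p beside 3.22% of all tested genes, and 246 without double heterozygous replicate 4. The single and double changes share the wild-type libraries, and the estimates of the sum and of the departure are correlated by design at −0.78, so no correlation between sum and observed change is given.

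**Figure D2:**
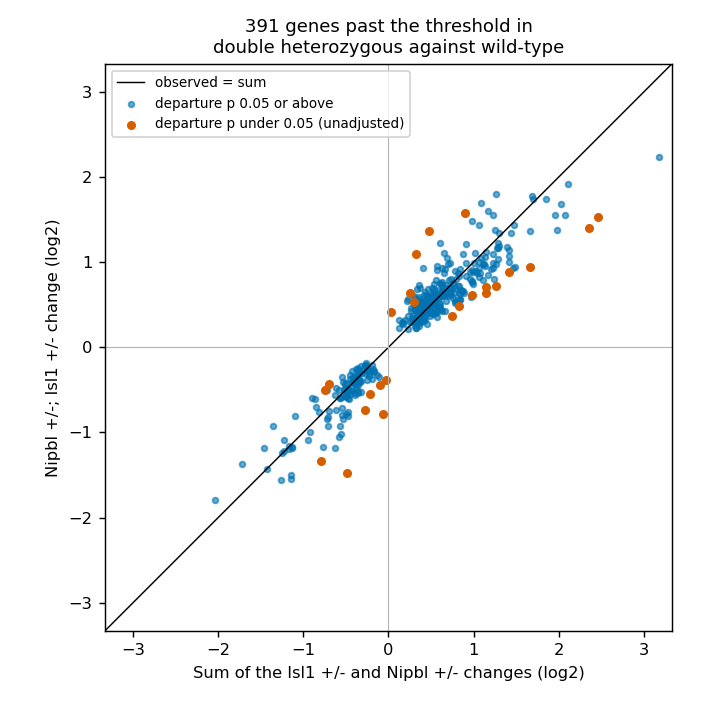
Log2 change in double heterozygous hearts (y) against the sum of the Isl1 +/- and Nipbl +/- changes (x), all against wild-type, for the 391 genes past the threshold in the double heterozygote. Points lie on both sides of the line of equality, and the 25 in orange have an unadjusted departure p under 0.05.

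The effect of Nipbl loss, averaged over both Isl1 genotypes, is nearly independent of the departure by design (correlation of the estimates 0.055), and so is that of Isl1 loss (0.067). The averaged Nipbl effect passed the threshold in 605 genes (4.02% called, edgeR), and in 1043 without Nipbl +/- replicate 2 (6.93% called). In the 401 higher genes the median Nipbl change was 0.51 on the Isl1 +/+ background and 0.45 on the Isl1 +/- background, and in the 204 lower genes it was −0.37 and −0.39. The departure had an interval that covered 0 in 372 of the 401 and 192 of the 204, and none of the 605 passed the adjusted threshold, with 28 and 12 at an unadjusted p under 0.05. That is 40 of 605, or 6.61%, beside 2.73% of all tested genes, and without Nipbl +/- replicate 2 it is 6.42% beside 3.22%. These shares, like those of the 391 and 839 genes above, lie above the 0.05 expected with no departure. The shares of all tested genes lie below it. The averaged Isl1 effect passed in 26 genes (0.173% called, edgeR). The 22 higher genes had a median Isl1 change of 0.56 on the Nipbl +/+ background and 0.52 on the Nipbl +/- background, and the interval of the departure covered 0 in all 22 and in all 4 lower ones. The count was 56 without Nipbl +/- replicate 2 (0.372% called), and the interval covered 0 in 36 of 37 higher and 18 of 19 lower genes. Over all single libraries left out, this count ran from 4, without double heterozygous replicate 5 or 9, to 60, without wild-type replicate 7.

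Among single genes of this kind, the estimate for the neuronal adhesion receptor gene Slitrk5 was −0.15 (95% interval −0.48 to 0.18). Its levels ran from 21.2 to 38.5 CPM in wild-type (median 31.2), 24.5 to 34.0 in Isl1 +/- (28.1), 9.59 to 24.3 in Nipbl +/- (17.6) and 10.5 to 19.8 in the double heterozygote (14.1). Both genotypes with Nipbl loss sat low together and overlapped. Trim72, which encodes a membrane repair protein of muscle, had medians of 15.7, 15.8, 23.9 and 25.5 CPM in the same order and a departure of 0.12 (−0.12 to 0.36). For Sulf1, a sulfatase that edits heparan sulfate and one of the genes of the averaged Isl1 effect, the medians were 45.0, 60.2, 55.7 and 74.4 CPM and the departure 0.07 (−0.23 to 0.37). Barx2, a homeobox gene, differed from these in its estimate. It had medians of 1.51, 1.60, 3.25 and 5.00 CPM, with every double heterozygous library above every wild-type one, and a departure of 0.69 (0.14 to 1.24, adjusted p 0.999, edgeR). Its values within sets 2, 5 and 6 were 1.23, 1.02 and 0.12.

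To describe the departure by cell lineage and function, 38 gene lists were scored in each library as the median over members of log2 CPM centred per gene, and the score was fitted with genotype and set. The same score over all tested genes gave −0.00 (−0.01 to 0.01). Of the 38 lists, 33 had a 95% interval wholly between −1 and 1 and 27 between −0.5 and 0.5. The interval lay off 0 for 4 lists with all libraries, 1 of them above 0, and for 2 without Nipbl +/- replicate 2. No p is given for any list, since the members were chosen with earlier results known. The sign agreed between sets 2, 5 and 6 in 9 of 38 lists, and in 2133 of the 15046 genes. Because these are whole hearts, fewer cells of a type and less RNA per cell cannot be told apart.

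**Figure D3:**
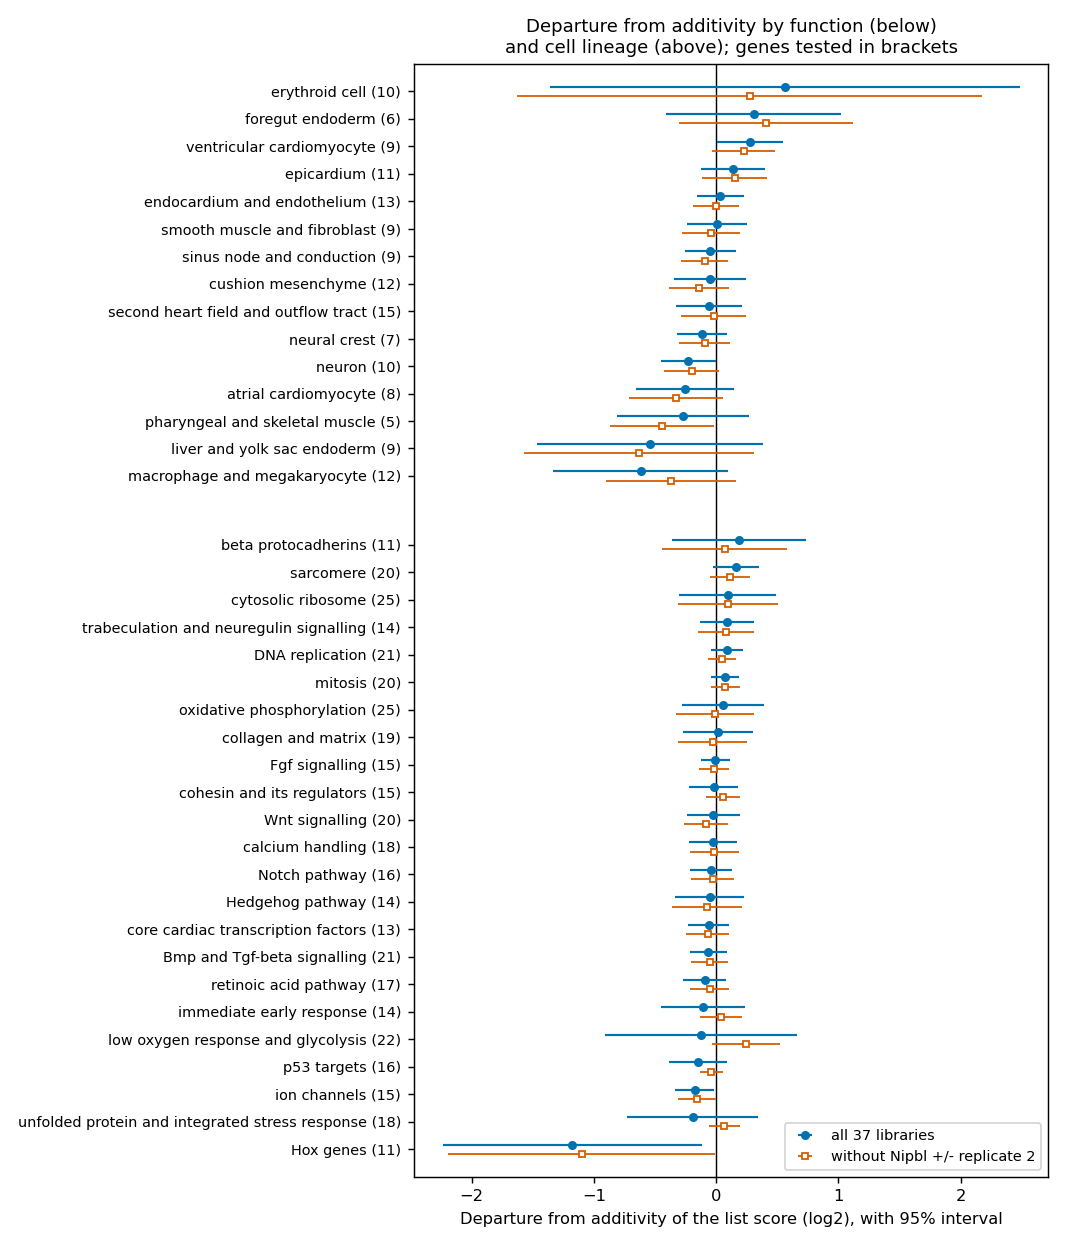
Departure from additivity of the score of 38 gene lists (log2) with its 95% interval, for all 37 libraries (circles) and without Nipbl +/- replicate 2 (squares). Lineages stand above and functions below, and 27 of the 38 intervals of all libraries lie between −0.5 and 0.5.

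The score of ventricular muscle genes had an interval above 0 with all libraries, but not without Nipbl +/- replicate 2, and no member passed the adjusted threshold. The score of the ventricular list was lower than in wild-type by an estimate of −0.16 in Isl1 +/- (−0.35 to 0.02) and −0.22 in Nipbl +/- (−0.42 to −0.03), which sum to −0.39, while the double heterozygote stood at −0.11 (−0.32 to 0.09). The departure was 0.28 (0.01 to 0.54), with 7 of 9 members above 0 and a median over members of 0.22. Without Nipbl +/- replicate 2, the lowest library of its group at −0.48, it was 0.22 (−0.03 to 0.48), and the interval reached 0 on leaving out any 1 of 18 of 36 libraries, with estimates from 0.22 to 0.33. Within sets 2, 5 and 6 the values were 0.51, 0.47 and −0.04. In all 4 genotypes the scores of single libraries overlapped.

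Within this list the natriuretic peptide genes, which are switched on in working and trabecular muscle, had the highest estimates. Nppb ran from 143 to 399 CPM in wild-type (median 203), from 111 to 256 in Isl1 +/- (190), from 57.2 to 303 in Nipbl +/- (136) and from 156 to 291 in the double heterozygote (232). The groups overlap, and the median is lowest in Nipbl +/- and highest in the double heterozygote. The departure of Nppb was 0.97 (0.43 to 1.51, unadjusted p 0.00102, adjusted p 0.999, edgeR), 0.84 (0.36 to 1.32) without Nipbl +/- replicate 2, and 0.91, 1.37 and 0.89 within sets 2, 5 and 6. For Nppa, its neighbour in function, the medians were 2071, 2015, 1629 and 2316 CPM and the departure 0.49 (0.07 to 0.91), with 0.77, 0.90 and −0.22 in the sets. The transcription factor genes of the list had lower estimates: Irx4, a ventricular homeobox gene, had 0.22 (−0.12 to 0.56), Hey2, a Notch target of compact muscle, −0.01 (−0.31 to 0.29), and Mycn, which drives growth of the compact layer, 0.24 (0.03 to 0.45). The light chain gene Myl2 had 0.20 (−0.24 to 0.64).

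Sarcomere genes, which encode the contractile filaments and share 3 members with the ventricular list, gave 0.16 (−0.02 to 0.35), with 18 of 20 members above 0 and a median over members of 0.14. The interval lay above 0 on leaving out wild-type replicate 1 (0.20, 0.02 to 0.37), wild-type replicate 7 (0.20, 0.03 to 0.36) or Nipbl +/- replicate 3 (0.19, 0.00 to 0.38), and the value was 0.11 (−0.05 to 0.28) without Nipbl +/- replicate 2. The highest estimate was that of Acta1, the skeletal actin gene that fetal heart muscle also uses. It ran from 442 to 1096 CPM in wild-type (median 668), 475 to 1049 in Isl1 +/- (593), 509 to 912 in Nipbl +/- (736) and 666 to 1141 in the double heterozygote (820), with all groups overlapping. Its departure was 0.39 (0.12 to 0.65, adjusted p 0.999, edgeR), and 0.03, 0.64 and 0.31 within the sets. The cardiac actin gene Actc1 gave 0.17 (−0.01 to 0.35), the titin gene Ttn 0.26 (−0.08 to 0.60), the troponin gene Tnnt2 0.18 (−0.13 to 0.49) and the fast atrial myosin gene Myh6 −0.03 (−0.36 to 0.29).

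Of the 10 genes above 0 with the smallest p, Ankrd1, which encodes a titin-associated ankyrin repeat protein, ran from 594 to 1055 CPM in wild-type (median 741), 452 to 740 in Isl1 +/- (608), 224 to 920 in Nipbl +/- (569) and 612 to 958 in the double heterozygote (787). All 9 Isl1 +/- libraries lay below the wild-type mean, and all 9 double heterozygous libraries lay above the Nipbl +/- mean, or 8 of 9 without Nipbl +/- replicate 2. Its departure was 0.74 (0.30 to 1.17, unadjusted p 0.00158, adjusted p 0.999, edgeR), 0.61 (0.28 to 0.94) without that library, and 0.69, 0.94 and 0.57 in the sets. Ccn2, a matricellular growth factor gene, had medians of 55.5, 58.1, 51.2 and 64.8 CPM and a departure of 0.46 (0.13 to 0.79). Tagln, an early smooth muscle gene that young heart muscle also expresses, had 0.37 (0.06 to 0.67), although the smooth muscle and fibroblast list as a whole gave 0.01 (−0.24 to 0.25), and −0.04 to 0.06 with 1 library left out.

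**Figure D4:**
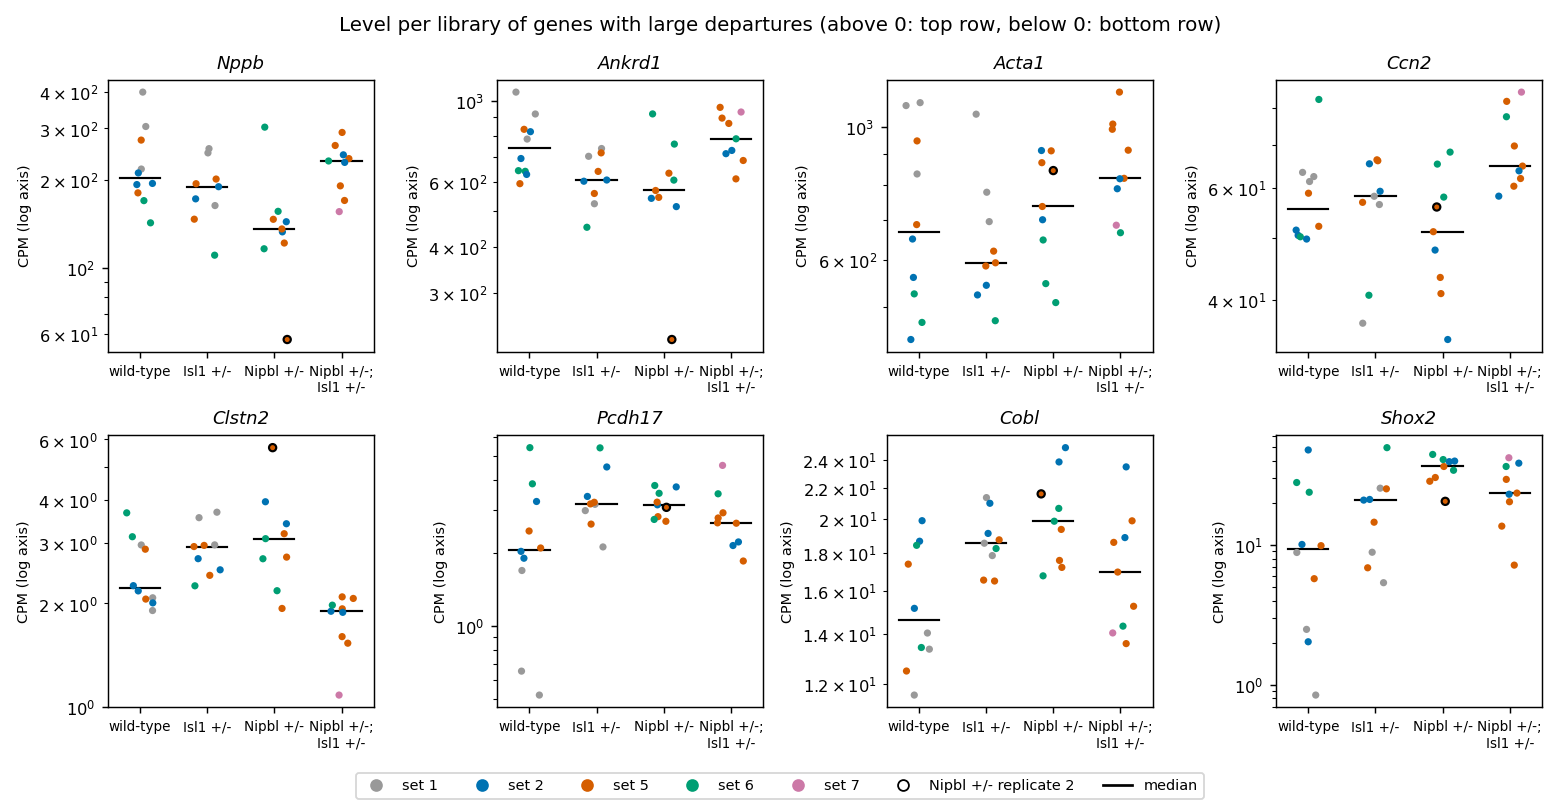
CPM (log axis) of 8 genes in each of 37 libraries by genotype, coloured by set, with the median as a bar and Nipbl +/- replicate 2 ringed. In the top row the double heterozygous median lies above that of each single heterozygote, and in the bottom row below it for Clstn2, Pcdh17 and Cobl.

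Of the 10 genes above 0 with the smallest p, the remaining 6 were Erdr1, Gspt2, Ahnak, Krt20, Ccsap and Ehd4. Their estimates ran from 0.25 for Ehd4, a membrane trafficking gene, to 2.74 for Erdr1. Erdr1 is a pseudoautosomal gene with near-identical copies, so its counts are uncertain, and it ran from 1.69 to 53.9 CPM within wild-type alone.

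The atrial list had an estimate below 0 with an interval that covered 0. It stood at 0.14 in Isl1 +/- (−0.13 to 0.42), 0.41 in Nipbl +/- (0.12 to 0.70) and 0.30 in the double heterozygote (0.00 to 0.61), and its departure was −0.25 (−0.65 to 0.14), with 2 of 8 members above 0 and a median over members of −0.31. Within sets 2, 5 and 6 it was 0.32, −0.14 and −0.59, so the sets differ in sign, and without wild-type replicate 2, the lowest of its genotype, it was −0.14 (−0.46 to 0.18). Without Nipbl +/- replicate 2 the value was −0.33 (−0.71 to 0.06), and without double heterozygous replicate 8 it was −0.34 (−0.72 to 0.04). Nr2f2, an atrial identity factor, had medians of 46.0, 49.4, 69.7 and 57.4 CPM and a departure of −0.38 (−0.80 to 0.05), and Sln, which encodes the atrial calcium pump regulator sarcolipin, had −0.94 (−2.02 to 0.14) at medians of 0.610 to 2.16 CPM. The light chain genes Myl7 and Myl4 gave 0.04 (−0.34 to 0.42) and 0.14 (−0.33 to 0.61).

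Shox2, a homeobox gene of the sinus venosus that keeps pacemaker cells apart from working muscle, gave the lowest estimate of the sinus node list. It ran from 0.846 to 47.8 CPM in wild-type (median 9.36), 5.37 to 49.6 in Isl1 +/- (20.9), 20.5 to 44.4 in Nipbl +/- (36.4) and 7.18 to 42.0 in the double heterozygote (23.5). The wild-type range contains the other libraries except the highest Isl1 +/- one, and Nipbl +/- is high and narrow. The departure of Shox2 was −1.29 (−2.43 to −0.15, adjusted p 0.999, edgeR), −1.31 (−2.45 to −0.16) without Nipbl +/- replicate 2, and −1.48, −1.59 and −1.06 in the sets. The sinus node and conduction list itself gave −0.05 (−0.25 to 0.16), with 4 of 9 members above 0. It was −0.09 (−0.29 to 0.10) without Nipbl +/- replicate 2, −0.01 (−0.21 to 0.19) without double heterozygous replicate 3 and −0.22 when members were averaged in place of their median. How much inflow tissue each dissected heart kept was not measured.

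Ion channel genes gave −0.18 (−0.33 to −0.02), with 2 of 15 members above 0 and a median over members of −0.17. The value was −0.15 (−0.31 to 0.00) without Nipbl +/- replicate 2, without double heterozygous replicate 3 it was −0.16 (−0.32 to 0.00) and without replicate 8 also −0.16 (−0.31 to 0.00). Kcnj3, a subunit of the atrial potassium channel that answers to the vagus, had medians of 15.8, 18.8, 23.5 and 22.3 CPM and a departure of −0.37 (−0.62 to −0.12), with 0.06, −0.61 and −0.23 in the sets. The pacemaker channel gene Hcn4 gave −0.30 (−0.71 to 0.12) and the gap junction gene Gja1 0.07 (−0.19 to 0.33). Calcium handling genes gave −0.02 (−0.22 to 0.17), and −0.07 to 0.01 with 1 library left out.

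The lowest list was that of the Hox genes, which pattern the body axis and mark the posterior second heart field and tissue next to the heart. Of 17 members 11 passed the filter on low counts, and all 11 had an estimate below 0, with a median of −1.29. An unadjusted p under 0.05 was found for 4 of the 11, and for 3 without Nipbl +/- replicate 2, beside 2.73% and 3.22% of all tested genes. The score stood at 0.30 in Isl1 +/- (−0.43 to 1.03), 1.37 in Nipbl +/- (0.59 to 2.14) and 0.49 in the double heterozygote (−0.31 to 1.30), with a departure of −1.18 (−2.24 to −0.12). It was −1.10 (−2.19 to −0.01) without Nipbl +/- replicate 2, and −1.39, −1.25 and −0.62 within the sets. The interval reached 0 on leaving out Isl1 +/- replicate 3 (−0.98, −1.99 to 0.03), Isl1 +/- replicate 8 (−1.05, −2.12 to 0.02), Nipbl +/- replicate 9 (−0.96, −1.98 to 0.07) or double heterozygous replicate 7 (−1.08, −2.19 to 0.02).

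Hoxa3 had the smallest p of the list. It ran from 0.0976 to 1.15 CPM in wild-type (median 0.360), 0.394 to 1.93 in Isl1 +/- (0.897), 0.858 to 4.55 in Nipbl +/- (1.53) and 0.724 to 2.19 in the double heterozygote (1.03). Each genotype with a loss had a median above wild-type, and the double heterozygote lay between the single ones. The departure of Hoxa3 was −1.54 (−2.50 to −0.58, adjusted p 0.999, edgeR), and that of Hoxc4, whose medians were under 1 CPM in every group, −2.87 (−5.07 to −0.67). Liver and yolk sac genes moved with this list in a single library: Nipbl +/- replicate 9 had the highest score of both, 2.66 for Hox and 3.54 for liver and yolk sac, and held 301 CPM of the fetal liver gene Afp, whose wild-type median was 0.113 CPM. The liver and yolk sac list, of which 9 of 12 members were tested, gave −0.54 (−1.47 to 0.38) with 1 of 9 above 0, and −0.09 (−0.52 to 0.34) without that library. Its scores ran from −0.72 to 0.33 in wild-type, −0.30 to 1.10 in Isl1 +/-, −0.69 to 3.54 in Nipbl +/- and −0.53 to 0.49 in the double heterozygote. The part of adjacent tissue in the Hox values was not tested beyond leaving out that library.

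Other tissue at the margin of the dissection gave wide intervals. The pharyngeal and skeletal muscle list, with 5 of 9 members tested, gave −0.27 (−0.81 to 0.27) and, without Nipbl +/- replicate 2, the lowest of its genotype, −0.44 (−0.87 to −0.02). Without Nipbl +/- replicate 9, the highest at a score of 1.63, it was −0.08 (−0.51 to 0.35). Its lowest member was Lhx2, a head muscle homeobox gene, at −1.43 (−2.76 to −0.10), while Tbx1, the pharyngeal T-box gene, gave −0.61 (−1.58 to 0.36). Foregut endoderm gave 0.31 (−0.41 to 1.02), with all 6 tested members above 0. It was 0.11 (−0.52 to 0.74) without double heterozygous replicate 6, whose score of 1.76 was the highest of its genotype, and 0.90 (−0.15 to 1.94) without set 5.

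**Figure D5:**
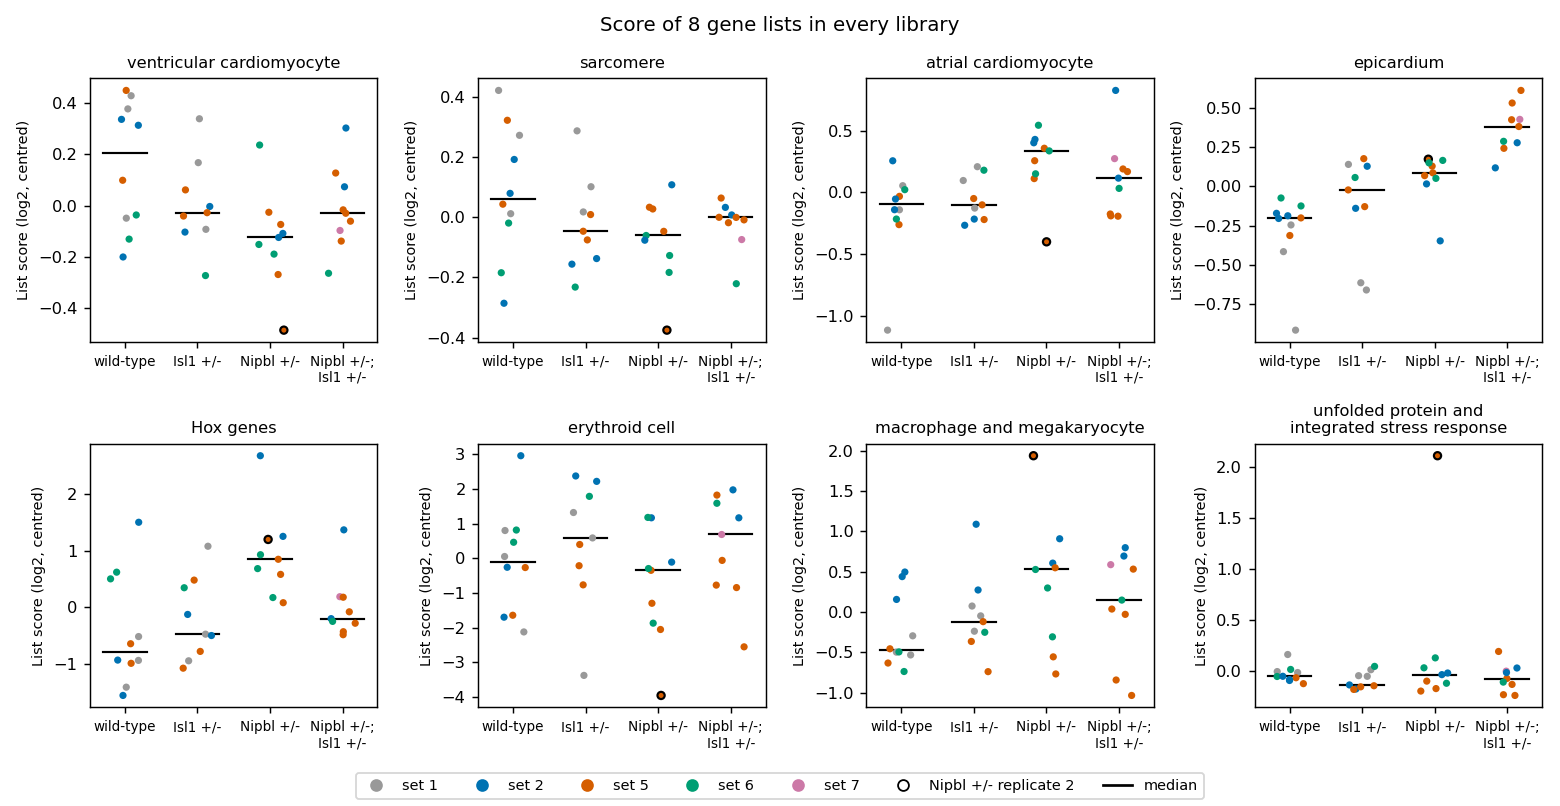
Score of 8 lists (log2, centred per gene) in each of 37 libraries by genotype, coloured by set, with the median as a bar and Nipbl +/- replicate 2 ringed. Epicardial scores of the double heterozygote lie above all wild-type scores, erythroid scores spread widely in every genotype, and a single Nipbl +/- library holds the stress response signal.

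Epicardial genes had their highest median score in the double heterozygote. The score ran from −0.91 to −0.07 in wild-type (median −0.20), −0.66 to 0.18 in Isl1 +/- (−0.02), −0.35 to 0.17 in Nipbl +/- (0.09) and 0.12 to 0.61 in the double heterozygote (0.38). Every double heterozygous library lay above every wild-type one, with overlap between the double and each single heterozygote. The single estimates of 0.17 and 0.20 sum to 0.38 against 0.51 (0.32 to 0.71) in the double heterozygote, so the departure was 0.14 (−0.12 to 0.40), with 9 of 11 members above 0, and 0.09 to 0.21 with 1 library left out. Wt1, the zinc finger factor of epicardium, had medians of 47.9, 48.1, 62.5 and 75.3 CPM and a departure of 0.23 (0.03 to 0.43, adjusted p 0.999, edgeR), with 0.17, 0.11 and 0.15 in the sets. The uroplakin gene Upk3b gave −0.10 (−0.42 to 0.23), Tbx18 0.09 (−0.15 to 0.34) and the retinoic acid synthesis gene Aldh1a2 −0.24 (−0.70 to 0.21). The keratin gene Krt19 depended on 1 library, with 0.59 (−0.19 to 1.38) from all libraries and 1.08 (0.49 to 1.68) without Nipbl +/- replicate 2, in which it reached 498 CPM.

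The endocardium, cushions and neural crest gave intervals that covered 0. Endocardial and endothelial genes had a departure of 0.04 (−0.16 to 0.23), cushion mesenchyme −0.05 (−0.35 to 0.24) and neural crest, with 7 of 12 members tested, −0.12 (−0.32 to 0.09). In the absence of Nipbl +/- replicate 2, the lowest of its genotype for cushion genes, cushion mesenchyme was at −0.14 (−0.38 to 0.11) and the endocardial list at 0.00 (−0.19 to 0.19). Cushion mesenchyme was at 0.01 (−0.28 to 0.29) without double heterozygous replicate 3, and the endocardial list at 0.09 (−0.09 to 0.26) without replicate 8 of that genotype. Neural crest ran from −0.16 to −0.07 with 1 library left out. The vascular cadherin gene Cdh5 gave 0.01 (−0.32 to 0.34) and Emcn, an endocardial sialomucin gene, 0.19 (−0.08 to 0.47). Postn, a matrix gene of cushion mesenchyme, had medians of 64.0, 89.5, 80.9 and 69.8 CPM and a departure of −0.44 (−0.85 to −0.02), the lowest of its list. The neuron list gave −0.23 (−0.45 to −0.00), but the interval reached 0 on leaving out any 1 of 20 of 36 libraries. Without double heterozygous replicate 3, the lowest of its group at −0.57, the value was −0.16 (−0.34 to 0.03), and without set 5 it was −0.04 (−0.28 to 0.19). Its pan-neuronal members Tubb3 and Stmn2 gave 0.13 (−0.34 to 0.61) and 0.02 (−0.45 to 0.50), while Map2, a microtubule protein gene, gave −0.57 (−0.99 to −0.16).

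Blood cells set a limit on what can be said of them. Erythroid scores ran from −2.12 to 2.96 in wild-type and from −3.38 to 2.37 in Isl1 +/-, and the embryonic globin gene Hbb-y from 740 to 50356 CPM within wild-type. The erythroid departure was 0.56 (−1.36 to 2.48), with all 10 tested members above 0. It was 0.11 (−1.61 to 1.83) without Isl1 +/- replicate 3, 0.27 (−1.63 to 2.17) without Nipbl +/- replicate 2 and 0.87 (−1.03 to 2.77) without double heterozygous replicate 1, and −0.92, 0.67 and 0.77 within sets 2, 5 and 6. The blood held by each heart was not measured. Macrophage and megakaryocyte genes gave −0.62 (−1.33 to 0.10), with 0 of 12 members above 0, and −0.37 (−0.90 to 0.17) without Nipbl +/- replicate 2, whose score of 1.94 was the highest of all libraries. Without Nipbl +/- replicate 1 the value was −0.74 (−1.44 to −0.04), and without double heterozygous replicate 4 it was −0.72 (−1.44 to −0.00). Pf4, a platelet chemokine gene, had a departure of −1.07 (−2.12 to −0.02), and −0.55 (−1.43 to 0.34) without Nipbl +/- replicate 2, which held 84.2 CPM against a wild-type median of 15.1. Ptprc, the pan-leukocyte phosphatase gene, gave −1.89 (−3.23 to −0.55) at medians under 1 CPM.

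The second heart field list, which holds Isl1 itself, gave −0.05 (−0.32 to 0.21), with 6 of 15 members above 0, and −0.10 to 0.01 with 1 library left out. Isl1 ran from 5.03 to 13.0 CPM in wild-type (median 6.82), 4.38 to 10.4 in Isl1 +/- (5.80), 9.11 to 17.5 in Nipbl +/- (12.5) and 4.80 to 15.1 in the double heterozygote (8.47). Its departure was −0.27 (−0.80 to 0.26), with −0.13, −0.48 and −0.79 in the sets. Bmp4, a ligand of the outflow tract, gave −0.30 (−0.60 to −0.01), the ligand genes Fgf8 and Fgf10 0.04 (−0.58 to 0.66) and −0.59 (−1.34 to 0.15), and Mef2c, a transcription factor that Isl1 is known to activate, −0.14 (−0.38 to 0.10). Core cardiac transcription factors gave −0.06 (−0.23 to 0.11), or −0.10 to −0.03 with 1 library left out, with Nkx2-5 at −0.00 (−0.20 to 0.19), Gata4 at −0.02 (−0.25 to 0.22) and Tbx5 at −0.11 (−0.32 to 0.09).

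The signalling lists described here had intervals that covered 0. The departure was −0.01 (−0.13 to 0.11) for Fgf signalling, −0.04 (−0.21 to 0.13) for the Notch pathway, −0.06 (−0.21 to 0.09) for Bmp and Tgf-beta signalling, −0.09 (−0.27 to 0.08) for the retinoic acid pathway, −0.02 (−0.24 to 0.19) for Wnt signalling and −0.05 (−0.33 to 0.23) for the Hedgehog pathway, whose values within sets 2, 5 and 6 were −0.45, −0.08 and 0.43. With 1 library left out these 6 estimates stayed between −0.12 and 0.03. Removal of Nipbl +/- replicate 2 took Wnt signalling to −0.08 (−0.27 to 0.10) and the retinoic acid pathway to −0.05 (−0.21 to 0.11). Trabeculation and neuregulin signalling, which shares the natriuretic peptide genes with the ventricular list, gave 0.09 (−0.13 to 0.31), and 0.05 to 0.15 with 1 library left out. Of the Wnt members the secreted inhibitor gene Sfrp1 had the lowest estimate, −0.34 (−0.58 to −0.11), and the target gene Axin2 gave −0.26 (−0.64 to 0.11). Collagen and matrix genes gave 0.01 (−0.27 to 0.30), and −0.05 to 0.06 with 1 library left out.

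Cohesin and its regulators gave −0.02 (−0.22 to 0.18), with 2 of 15 members above 0 and 10 of 15 without Nipbl +/- replicate 2, where the value was 0.06 (−0.08 to 0.19). Nipbl itself had a departure of −0.12 (−0.44 to 0.20), and 0.05 (−0.14 to 0.24) without that library. The ring subunit genes Smc1a, Smc3 and Rad21 gave 0.09 (−0.13 to 0.30), −0.12 (−0.47 to 0.24) and −0.05 (−0.30 to 0.20). The beta protocadherin cluster, cell adhesion genes whose promoter choice is known to need cohesin, stood at −0.94 (−1.34 to −0.54) in Nipbl +/- and −0.64 (−1.06 to −0.22) in the double heterozygote, and at 0.12 (−0.26 to 0.49) in Isl1 +/-. Its departure was 0.19 (−0.36 to 0.73), with 8 of 11 tested members above 0. It was 0.07 (−0.45 to 0.58) without Nipbl +/- replicate 2, the lowest library of its genotype, and 0.30 (−0.20 to 0.79) without wild-type replicate 4. The members are related genes, each at under 2 CPM in every library, so single genes of the cluster are uncertain.

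Growth and metabolism gave narrow intervals for cell division and wider ones for the ribosome. DNA replication genes gave 0.09 (−0.04 to 0.22), mitosis genes 0.07 (−0.04 to 0.19), with 18 of 21 and 16 of 20 members above 0. The DNA replication value was 0.05 (−0.06 to 0.16) without Nipbl +/- replicate 2. The clamp gene Pcna gave 0.17 (−0.12 to 0.46) and the proliferation marker Mki67 0.05 (−0.38 to 0.48). Cytosolic ribosome genes gave 0.10 (−0.30 to 0.49) and oxidative phosphorylation 0.06 (−0.28 to 0.40). Ribosome genes were at 0.01 (−0.36 to 0.38) without double heterozygous replicate 8, and oxidative phosphorylation at −0.01 (−0.33 to 0.31) without Nipbl +/- replicate 2. Without Nipbl +/- replicate 8 the ribosome value was 0.18 (−0.16 to 0.53) and that of oxidative phosphorylation 0.13 (−0.17 to 0.43). Within sets 2, 5 and 6 the ribosome values were 0.57, 0.31 and −0.46 and those of oxidative phosphorylation 0.42, 0.28 and −0.50. Both lists thus took the opposite sign in set 6, where 2 genotypes have 1 library each.

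Stress response genes show how far single libraries can set the departure. Ddit3, a transcription factor gene of the integrated stress response, ran from 11.5 to 25.4 CPM in wild-type (median 16.0), 10.6 to 24.5 in Isl1 +/- (14.4), 10.4 to 702 in Nipbl +/- (15.4) and 10.9 to 25.7 in the double heterozygote (13.1). The value of 702 CPM belongs to Nipbl +/- replicate 2, and all other libraries overlap. The departure of Ddit3 was −2.11 (−3.81 to −0.42) with that library and 0.17 (−0.22 to 0.57) without it. For Ndrg1, a gene induced by low oxygen that reached 545 CPM there, the values were −2.76 (−4.95 to −0.56) and 0.51 (−0.21 to 1.24), and for Ddit4, another such gene, −1.40 (−2.74 to −0.06) and 0.17 (−0.18 to 0.51). Double heterozygous replicate 3 was the highest of its genotype for Ndrg1, at 18.7 CPM against at most 7.33 in wild-type, and for Ddit4. Without both libraries the departures were 0.03 (−0.40 to 0.46) for Ndrg1, −0.01 (−0.24 to 0.22) for Ddit4 and 0.03 (−0.30 to 0.36) for Ddit3. The low oxygen and glycolysis list gave −0.12 (−0.91 to 0.66), and 0.25 (−0.03 to 0.52) without Nipbl +/- replicate 2. Its members above 0 went from 5 to 20 of 22, and the median over members from −0.68 to 0.26. Members at an unadjusted p under 0.05 went from 3 to 7, beside 2.73% and 3.22% of all tested genes. Double heterozygous replicate 3 had the highest score of its genotype, 0.92. The unfolded protein and integrated stress response list gave −0.19 (−0.73 to 0.34), and 0.07 (−0.06 to 0.20) without Nipbl +/- replicate 2. There the members above 0 went from 1 to 11 of 18, those at such a p from 3 to 2, and the median from −0.41 to 0.08.

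Of the 10 genes below 0 with the smallest p, the first was Clstn2, a calsyntenin gene of the synapse. It ran from 1.91 to 3.67 CPM in wild-type (median 2.21), 2.25 to 3.69 in Isl1 +/- (2.93), 1.93 to 5.68 in Nipbl +/- (3.09) and 1.08 to 2.09 in the double heterozygote (1.90). Both single heterozygotes lie on the high side of wild-type, and every double heterozygous library lies below the lowest Isl1 +/- library. The departure of Clstn2 was −0.96 (−1.43 to −0.49, unadjusted p 2.06e-04, adjusted p 0.999, edgeR), −0.80 (−1.20 to −0.40) without Nipbl +/- replicate 2, and −1.21, −0.93 and 0.18 in the sets.

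Pcdh17, a delta protocadherin gene, ran from 0.520 to 5.44 CPM in wild-type (median 2.07), 2.12 to 5.42 in Isl1 +/- (3.19), 2.70 to 3.80 in Nipbl +/- (3.16) and 1.86 to 4.59 in the double heterozygote (2.66). The groups overlap, and all 9 libraries of each single heterozygote lie above the wild-type mean of log2 CPM. Its departure was −0.94 (−1.49 to −0.40), and −1.38, −0.60 and −0.17 in the sets. Cobl, an actin nucleator gene, had medians of 14.6, 18.6, 19.9 and 17.0 CPM, with −0.51 (−0.77 to −0.25) and −0.38, −0.40 and −0.62 in the sets. The ion exchanger gene Slc24a3 gave −0.63 (−0.97 to −0.30), and Fst, which encodes the activin inhibitor follistatin, −0.83 (−1.40 to −0.26). The remaining genes, Ampd3, Tmem268 and AW551984, lay between −0.63 and −0.30, and Kcnj3 and Sfrp1 are given above. None of these genes passed the adjusted threshold.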

How the data were processed

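Bulk paired-end RNA sequencing of E10.5 hearts gave 37 libraries. The authors deposited raw read counts by gene symbol (25239 rows, 37 columns). The submitters' processing notes name STAR, featureCounts, GRCm38 and mm10, and the strand setting is not given in the sources used here, so overlapping and near-identical genes are uncertain. All 37 columns matched a title, with 0 other columns. Low genes were dropped with filterByExpr, grouped by genotype (at least 10 counts in enough libraries and 15 in total). After TMM scaling, edgeR 4.0.16 (R 4.3.3, with limma 3.58.1) was used for the quasi-likelihood fit, whose factors were the genotype and the set number. Tests were two-sided with Benjamini-Hochberg adjustment over 15046 genes and a threshold of 0.05. Intervals are 95% and come from the same fit. CPM values are TMM-scaled. List scores used log2 CPM with a prior count of 2 and a linear model with 29 residual degrees of freedom. The fit was tested on simulated data. Nothing says that libraries came from separate litters, so p-values measure the spread between these libraries. No library duplicated another of its genotype: over 153 pairs of the same genotype, chi-square per degree of freedom was at least 7.19. Pairs across genotypes were not compared.

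The members and lists were chosen with earlier results of these data known. Named genes are Nipbl and Isl1, the 10 with the smallest p in each direction of the departure at a mean log2 CPM of 1 or more, excluding Y-linked genes, Xist and Tsix, up to 5 per direction of each averaged effect by the same measures, list members with an unadjusted p under 0.05, and up to 4 members of a described list by level or size of departure. Alternatives covered sets, DESeq2 1.42.0, voom weights, surrogate variables (sva 3.50.0), filters, the summary of a list and each library left out. That last alternative for list scores, the counts of changed genes with each library left out, the intervals without set 5 and the fit without 2 libraries were added after seeing the data. Python tools were pandas 2.3.3, numpy 2.4.6 and matplotlib 3.10.9. Some list members are not reported here by name.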

Additional observations from a re-analysis of the deposited data

Results flagged for a closer look

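In 58 of 380 series of values, 1 per list or gene and genotype, a library stood apart, and 1 further flag is a contrast between backgrounds. In these 58 the gap of an end library to its nearest neighbour, divided by the range of the group, exceeded Dixon's 95% critical value. Chance gives about 1 in 20 for independent series chosen without these data. Here many genes were picked by their departure in these data and lists share members, so that rate is only a rough guide. The share of the range is given after each list or gene. Nipbl +/- replicate 2 was the highest of its genotype for foregut endoderm (0.512), cohesin and its regulators (0.545), low oxygen response and glycolysis (0.888), unfolded protein and integrated stress response (0.859), immediate early response (0.797), p53 targets (0.716), Dhrs3 (0.624), Ndrg1 (0.864), Adm (0.906), Ddit4 (0.900), Dnajb9 (0.808), Ddit3 (0.849), Herpud1 (0.879) and Bbc3 (0.791) and the lowest of its genotype for atrial cardiomyocyte (0.542), cushion mesenchyme (0.56), beta protocadherins (0.525), Wnt signalling (0.496), DNA replication (0.612), Ankrd1 (0.589) and Sox3 (0.559). Of these genes, Ddit3, Ndrg1, Ddit4 and Ankrd1 are given with and without this library in the results.

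Double heterozygous replicate 8 was the highest of its genotype for atrial cardiomyocyte (0.542), Hox genes (0.637), oxidative phosphorylation (0.512) and cytosolic ribosome (0.522) and the lowest of its genotype for endocardium and endothelium (0.597), trabeculation and neuregulin signalling (0.742), Notch pathway (0.716) and Fgf signalling (0.604). Wild-type replicate 7 was the highest of its genotype for DNA replication (0.544) and Dhrs3 (0.594) and the lowest of its genotype for core cardiac transcription factors (0.483), Gspt2 (0.621) and Mycn (0.559). Double heterozygous replicate 3 was the highest of its genotype for Ndrg1 (0.701), Adm (0.572), Ddit4 (0.615) and Herpud1 (0.514) and the lowest of its genotype for Wnt signalling (0.509). Wild-type replicate 2 was the highest of its genotype for Mtmr7 (0.522) and the lowest of its genotype for atrial cardiomyocyte (0.623) and epicardium (0.594). Nipbl +/- replicate 9 was the highest of its genotype for liver and yolk sac endoderm (0.745) and Hox genes (0.549). Double heterozygous replicate 7 was the highest of its genotype for Ampd3 (0.526) and the lowest of its genotype for sarcomere (0.515). Wild-type replicate 3 was the highest of its genotype for unfolded protein and integrated stress response (0.513) and the lowest of its genotype for Notch pathway (0.49). Double heterozygous replicate 2 was the highest of its genotype for Ppp1r17 (0.542) and the lowest of its genotype for Clstn2 (0.525). Nipbl +/- replicate 8 was the highest of its genotype for Tagln (0.575) and the lowest of its genotype for Erdr1 (0.516). Nipbl +/- replicate 3 was the lowest of its genotype for epicardium (0.697). Isl1 +/- replicate 9 was the highest of its genotype for liver and yolk sac endoderm (0.675). Double heterozygous replicate 6 was the highest of its genotype for foregut endoderm (0.66). Wild-type replicate 10 was the highest of its genotype for immediate early response (0.52). Wild-type replicate 6 was the highest of its genotype for Ccn2 (0.522). Wild-type replicate 4 was the lowest of its genotype for Map2 (0.676).

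Ankrd1 differed between backgrounds: every Isl1 +/- library lay below the wild-type mean and every double heterozygous library above the Nipbl +/- mean, a difference of 0.801 in mean log2 CPM with no set term. That split was not tested as such, and the departure of Ankrd1 in the fit had an adjusted p of 0.999 (edgeR). Without Nipbl +/- replicate 2, 8 of 9 double heterozygous libraries lay above that mean.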

How the results depend on the processing

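The count of genes past an adjusted p of 0.05 was 0 in every alternative run (edgeR, DESeq2 and voom). At an unadjusted p under 0.05 it was 411, and 435 with DESeq2, 235 with only sets 2, 5 and 6, 847 without set 6, 1054 with 2 surrogate variables, 745 of 20966 genes with no filter and 723 with voom quality weights. Leaving out each library gave 325 (without double heterozygous replicate 1) to 653 (without Nipbl +/- replicate 8). The share of intervals between −1 and 1 ran from 80.0% to 89.7%. Without Nipbl +/- replicate 2 the departures of Ndrg1 (0.51), Ddit4 (0.17) and Ddit3 (0.17) changed sign, as did Ndrg1 (0.19) and Ddit4 (0.018) with 2 surrogate variables, and Ndrg1 (0.029) and Ddit3 (0.031), but not Ddit4 (−0.0067), without both that library and double heterozygous replicate 3. For that library the cause was not tested beyond its removal. Of 380 alternative values of list scores 377 were counted as unchanged. Those by summed CPM, 1 per list, are on another scale. They were checked only for a change of sign, in lists with an interval off 0. The rest of the 377 stayed within the spread between libraries. The 3 values that moved were neuron (−0.23 to −0.04) and foregut endoderm (0.31 to 0.90) without set 5, and sinus node and conduction (−0.05 to −0.22) with the mean of members.

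Title numbers do not pair libraries: over 54 same-numbered pairs the median correlation of deviations was 0.028, and 5 of 37 libraries correlated best with their own number. With the replicate number as a block in place of the set, 274 genes had an unadjusted p under 0.05 and 0 an adjusted one. The number of libraries limits the precision: low genes and blood lists keep wide intervals, and set 6 holds 1 library of 2 genotypes.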
